A study of Sus scrofa domesticus with 8 samples.

Results

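Of 10707 genes with a single symbol, 46 were at nearly their starting level after 48 h of culture and clearly above it at 96 h and 144 h. They were chosen from the array values themselves, on a log2 scale on which 1 unit is a doubling. For each gene the feature (a set of probes read as 1 value) with the highest mean was taken. A gene entered when its 48 h mean lay within 0.4 of its 0 h mean and its 96 h and 144 h means were both at least 1 above 0 h. In addition, every array at 96 h and 144 h had to lie above every array at 0 h and 48 h. A2M, which encodes the secreted protease inhibitor alpha-2-macroglobulin, is the gene that marks the set, and it met all these conditions.

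The cells were granulosa cells, which enclose the egg within the ovarian follicle and make its estrogen. They came from slaughtered pigs (Sus scrofa domesticus), 43 crossbred Landrace gilts of a median 170 days of age and 98 kg, and grew at 37 °C in 5% CO2 in DMEM that held L-glutamine, antibiotics and 2% fetal bovine serum. The 4 groups were 0 h, 48 h, 96 h and 144 h of culture, with 2 whole-transcript arrays each, and no group had any other treatment. Whether paired arrays represent different animals, pools or dishes is not stated in the labels, so the p-values given here measure only the spread between arrays, which may be technical. No label gives a batch, and batch and time cannot be told apart.

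Granulosa cells in the follicle sit behind a basement membrane and depend on gonadotropins and on contact with their neighbours. On plastic in serum they attach, spread and lose much of their steroid-producing character, while genes of adhesion, contraction and matrix become active. Extracellular matrix, secreted protease inhibitors, antagonists of Wnt ligands and the enzymes of cholesterol synthesis, whose product granulosa cells convert to steroids, all have representatives among the 46 genes.

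At 0 h, HSD17B1 (estrogen synthesis) had a mean log2 level of 10.84 and NR5A2 (a nuclear receptor of steroidogenic cells) one of 9.39, and none of the 5 measured granulosa markers was below the arrays' lower quartile. FSHR, CYP19A1, FOXL2, INHA and GATA4 were not analysed here. The arrays had medians between 4.52 and 4.63. The 96 h arrays stood apart in 1 respect: the SD of the change from 48 h over 38 ribosomal protein genes was 0.82 at 96 h and 0.14 at 144 h, and its part in the results was not tested. Both times enter the choice of the genes, and every difference between 96 h and 144 h rests on the 96 h arrays.

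The conditions together held for 0.43% of the named genes. All late arrays lay above all early ones for 944 genes (8.82%), the 48 h mean lay within the band for 6642 (62%), and both late means were at least 1 above 0 h for 716 (6.69%). Since these values chose the set, the levels at 0 h, 48 h, 96 h and 144 h are given below as a description, without a test against 0 h or 48 h. In RNA from a whole culture, more cells of a type and more RNA per cell cannot be told apart.

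At 48 h, 35 of the 46 genes were slightly above and 11 slightly below their 0 h mean, with a median difference of 0.17. Between 48 h and 96 h the difference ran from 0.73 to 4.94 with a median of 1.495, and between 48 h and 144 h from 0.65 to 4.31 with a median of 1.34. The mean was highest at 96 h for 21 genes and at 144 h for 25. The heat map of all 46 genes shows this as pale early columns and coloured late ones.

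**Figure D1:**
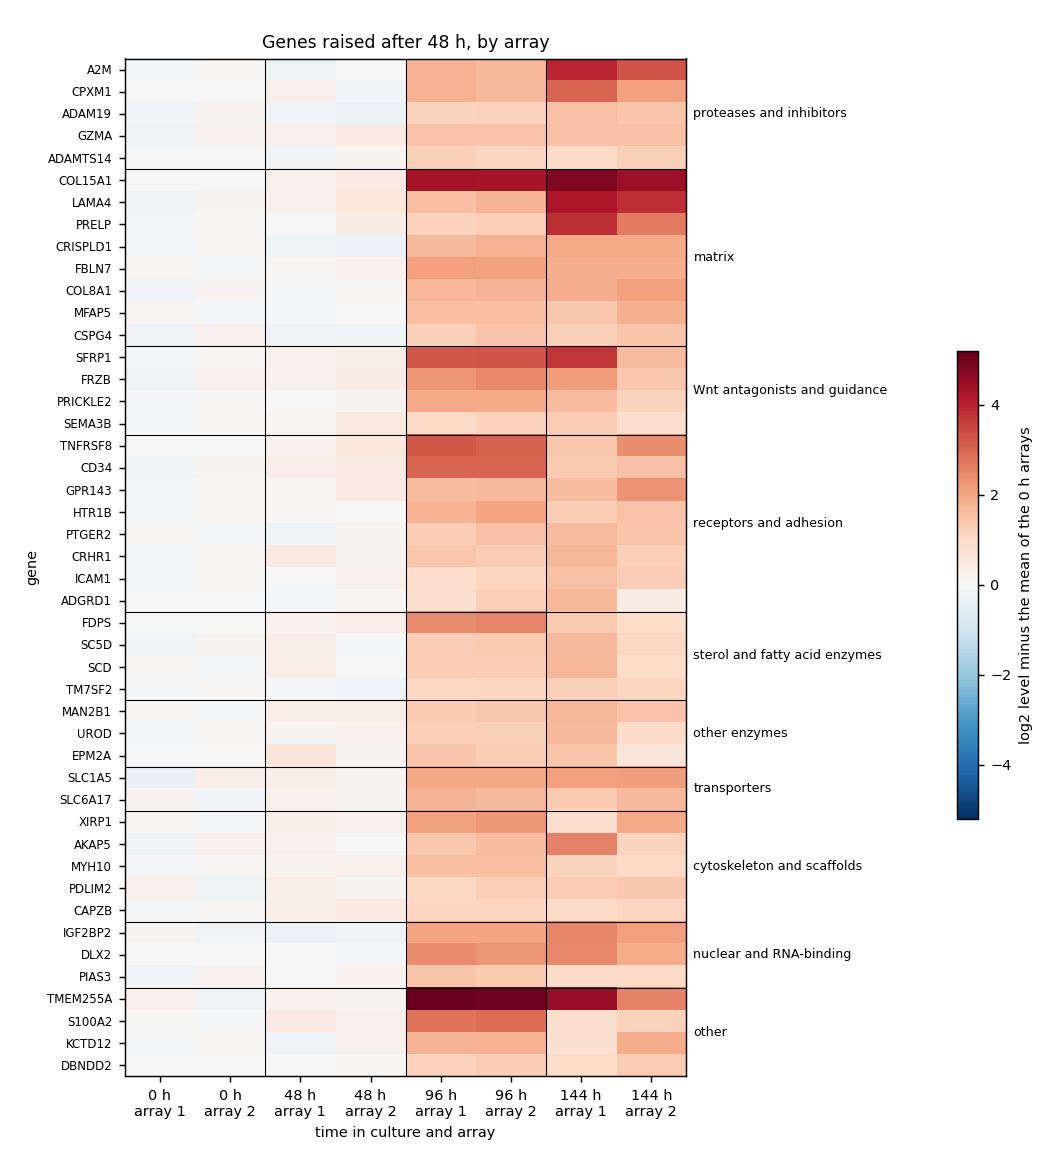
Each row is 1 of the 46 genes, grouped by role, and each column 1 array; colour is the log2 level minus the mean of the 0 h arrays. The 4 columns at 0 h and 48 h are pale for every gene, COL15A1 and TMEM255A are the darkest at 96 h, and the 144 h arrays differ from each other for SFRP1, TMEM255A and AKAP5.

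A2M had log2 levels of 4.83 and 4.91 at 0 h, 4.60 and 4.84 at 48 h, 6.67 and 6.60 at 96 h, and 8.83 and 8.14 at 144 h. Its level was flat at first and higher at 96 h, as the choice of genes required, and higher again at 144 h. The 144 h arrays did not overlap the 96 h arrays. The mean was 3.77-fold above 48 h at 96 h and 13.5-fold above it at 144 h. The difference from 96 h to 144 h, which the choice of genes did not use, was 1.85 ± 0.21 (SE, n = 2 arrays per time, limma's moderated test, Benjamini-Hochberg adjusted p = 0.00084). Alpha-2-macroglobulin traps proteases of many classes in a cage of its subunits, and the complex is cleared through the receptor LRP1. PZP, a close relative of A2M, was not analysed here, and probes for relatives this similar may not separate them.

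The proteases and inhibitors of the set numbered 5. CPXM1, a secreted member of the carboxypeptidase family, had levels of 4.60 and 4.67 at 0 h, 4.92 and 4.49 at 48 h, 6.43 and 6.30 at 96 h, and 7.68 and 6.78 at 144 h. Both 144 h arrays lay above both 96 h arrays, but the difference of 0.87 ± 0.27 did not pass the test (limma, adjusted p = 0.0553). It passed under 5 of 16 alternatives, and was 0.42 without 144 h array 1 and 1.31 without 144 h array 2 (adjusted p = 0.149 and 0.00288). ADAM19, a membrane-bound metalloprotease, had time means of 4.70, 4.45, 5.87 and 6.19 at 0 h, 48 h, 96 h and 144 h. ADAMTS14, which trims the amino end of fibrillar procollagens, had means of 4.06, 4.03, 5.24 and 5.16. GZMA, a serine protease of cytotoxic lymphocytes, had means of 3.18, 3.52, 4.66 and 4.70. Its 0 h level was under the lower quartile, so no fold is given, and another feature of GZMA was flat at 2.63, 2.67, 2.72 and 2.68. RefSeq holds 2 protein-coding entries named GZMA, and whether both features belong to the same entry was not examined.

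Matrix and matrix-associated genes were, with the receptors, the largest role group, with 8 members. COL15A1, a collagen that bridges basement membranes to the tissue below, had levels of 3.89 and 3.86 at 0 h, 4.12 and 4.30 at 48 h, 8.21 and 8.18 at 96 h, and 8.73 and 8.32 at 144 h. It had the greatest difference between late and early arrays of all 46 genes, 4.32, and was 15.8-fold above 48 h at 96 h and 19.8-fold at 144 h. Between 96 h and 144 h the difference was 0.32 ± 0.15 (limma, adjusted p = 0.171). It was 0.12 (0.543) without 144 h array 1 and 0.53 (0.0200) without 144 h array 2.

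LAMA4, the laminin alpha chain of vessel and muscle basement membranes, had levels of 2.86 and 3.14 at 0 h, 3.21 and 3.55 at 48 h, 4.58 and 4.78 at 96 h, and 7.21 and 6.85 at 144 h. Most of its rise came after 96 h, at 2.34 ± 0.18 (limma, adjusted p = 0.000189), and no fold is given against 0 h because that level was under the lower quartile. PRELP, a small leucine-rich proteoglycan that ties collagen to basement membranes, had levels of 4.95 and 5.05 at 0 h, 5.03 and 5.37 at 48 h, 6.21 and 6.23 at 96 h, and 8.84 and 7.69 at 144 h. The pair of 96 h arrays was nearly equal and the 144 h arrays were apart, yet the rise of 2.04 ± 0.32 passed the test (limma, adjusted p = 0.0032).

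CRISPLD1, a secreted protein with a cysteine-rich domain, had levels of 3.57 and 3.76 at 0 h, 3.43 and 3.34 at 48 h, 5.34 and 5.48 at 96 h, and 5.64 and 5.64 at 144 h. FBLN7, a fibulin that cells adhere to, had levels of 4.61 and 4.44 at 0 h, 4.64 and 4.72 at 48 h, 6.64 and 6.60 at 96 h, and 6.42 and 6.42 at 144 h. That their early means were close and their late arrays higher was required by the choice of genes. Both 144 h arrays lay above both 96 h arrays for CRISPLD1 and below them for FBLN7. The differences of 0.23 ± 0.12 and -0.20 ± 0.11 did not pass the test (limma, adjusted p = 0.219 and 0.244). COL8A1, a short-chain collagen that forms hexagonal networks, had time means of 4.81, 4.81, 6.57 and 6.82, and a second feature of it also met the conditions. MFAP5, a glycoprotein of elastic microfibrils, had means of 3.05, 3.03, 4.61 and 4.66, with its early level under the lower quartile. CSPG4, the NG2 proteoglycan of pericytes, had means of 5.33, 5.11, 6.68 and 6.65.

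Relatives of the matrix genes were taken from lists drawn up after the 46 genes were known and were therefore not tested. LAMB1 had means of 3.95, 9.01, 9.87 and 9.26, so most of the difference lay before 48 h, and LAMA2 had means of 9.57, 6.84, 5.58 and 5.79. Of 12 listed laminin chains 6 were measured. Of the 5 measured laminin chains other than LAMA4, 1 had a higher mean than at 48 h at both late times. No share over all named genes was computed for this count. COL8A2, the partner chain of COL8A1, had means of 5.08, 4.82, 5.24 and 5.46. Its late arrays (5.19 to 5.66) all lay above its early arrays (4.76 to 5.14), but its late means were less than 1 above 0 h.

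**Figure D2:**
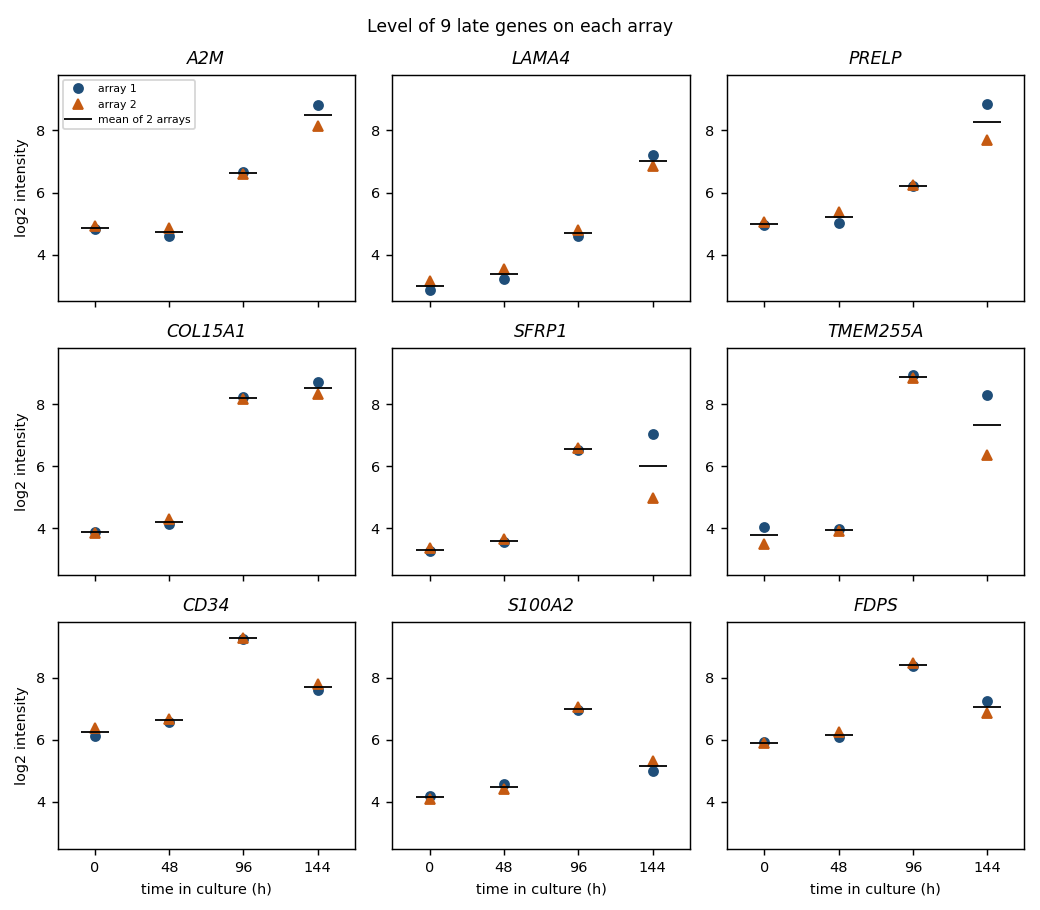
Log2 intensity (vertical) of 9 of the genes against time in culture in hours (horizontal); circles and triangles are the 2 arrays of a time and the bar is their mean. A2M, LAMA4 and PRELP are highest at 144 h, CD34, S100A2 and FDPS are highest at 96 h, and the 144 h arrays of SFRP1 are 2.07 apart.

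Secreted Wnt antagonists bind Wnt ligands outside the cell, and 2 of them, SFRP1 and FRZB, were in the set. SFRP1 had levels of 3.26 and 3.37 at 0 h, 3.55 and 3.66 at 48 h, 6.53 and 6.59 at 96 h, and 7.03 and 4.96 at 144 h. The 144 h arrays lay on either side of the 96 h arrays, and the difference of -0.56 ± 0.53 did not pass the test (limma, adjusted p = 0.509). Its sign rested on 1 array: it was 0.47 without 144 h array 2 and -1.60 without 144 h array 1.

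FRZB had levels of 5.78 and 6.20 at 0 h, 6.15 and 6.37 at 48 h, 8.30 and 8.47 at 96 h, and 8.16 and 7.41 at 144 h. Its 144 h arrays were both under its 96 h arrays, with a difference of -0.60 ± 0.25 that did not pass the test (limma, adjusted p = 0.129). The difference was -0.98 and passed without 144 h array 1 (adjusted p = 0.0126), and was -0.22 without 144 h array 2 (0.459). Of the 7 other measured antagonists on a list made afterwards, SFRP2 had means of 3.67, 9.22, 10.08 and 10.69 and DKK3 of 8.51, 10.82, 10.01 and 10.37, both higher at 48 h than at 0 h. SFRP5, WIF1, DKK1, DKK2 and SOST had lower means at 48 h than at 0 h. Of the 7, 5 had a higher mean than at 48 h at both late times, a count for which no share over all named genes was computed. In 2, SFRP2 and SFRP5, all late arrays lay above all early ones, which held for 8.82% of all named genes. SFRP5 had means of 4.26, 4.08, 4.64 and 4.76. DKK1 was under the lower quartile at all times. None of these was tested.

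PRICKLE2, a component of planar cell polarity, had levels of 3.96 and 4.08 at 0 h, 4.00 and 4.18 at 48 h, 5.99 and 6.001 at 96 h, and 5.64 and 5.16 at 144 h. It fell between 96 h and 144 h by 0.59 ± 0.17 (limma, adjusted p = 0.0371), a call that was lost under 8 of 16 alternatives, among them leaving out any 1 array other than 144 h array 1. Without 144 h array 2 the difference was -0.35. SEMA3B, a secreted guidance cue, had time means of 4.14, 4.41, 5.23 and 5.23.

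Receptors and adhesion molecules made up 8 of the genes. CD34, a sialomucin on blood progenitors, endothelium and some stromal cells, had levels of 6.11 and 6.39 at 0 h, 6.59 and 6.66 at 48 h, 9.26 and 9.29 at 96 h, and 7.60 and 7.80 at 144 h. It peaked at 96 h and fell by 1.58 ± 0.13 to 144 h (limma, adjusted p = 0.00026). It stayed above every early array, as the choice of genes required. Of the 5 measured endothelial markers, ROBO4 also had its highest mean at 96 h, within a narrow range (3.84, 3.64, 3.91 and 3.75). The means of PECAM1 (4.54, 5.55, 5.07 and 5.68), VWF (4.13, 3.72, 3.78 and 3.98), KDR (3.72, 3.19, 2.84 and 3.06) and TEK (2.95, 2.83, 2.93 and 2.91) were highest at another time.

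TNFRSF8, the receptor also called CD30, had levels of 4.94 and 4.91 at 0 h, 5.10 and 5.49 at 48 h, 8.16 and 7.98 at 96 h, and 6.33 and 7.36 at 144 h. It fell by 1.22 ± 0.30 between the late times (limma, adjusted p = 0.0212), with both 144 h arrays below both 96 h arrays. The call was lost without 96 h array 1 (adjusted p = 0.126) and without 96 h array 2 (adjusted p = 0.0860), and the difference was -0.71 without 144 h array 1. HTR1B, a serotonin receptor that lowers cyclic AMP, had levels of 3.04 and 3.27 at 0 h, 3.22 and 3.14 at 48 h, 4.98 and 5.22 at 96 h, and 4.47 and 4.66 at 144 h. It fell by 0.53 ± 0.14 (limma, adjusted p = 0.0288), which was lost without 96 h array 1 (0.0678), 96 h array 2 (0.209) or 144 h array 1 (0.0835).

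The other receptors did not pass the test between 96 h and 144 h. PTGER2, the prostaglandin E2 receptor that raises cyclic AMP, had time means of 4.17, 4.12, 5.55 and 5.70, and its second feature had 4.06, 4.10, 5.50 and 5.64. CRHR1, the receptor for corticotropin-releasing hormone, had means of 4.45, 4.75, 5.79 and 5.93, again with a second feature that met the conditions. ICAM1, the ligand of leukocyte integrins, had means of 4.91, 5.05, 5.93 and 6.30. GPR143, a receptor of pigment cells, had means of 4.19, 4.47, 5.86 and 6.16. ADGRD1, an adhesion receptor, had means of 4.04, 4.05, 5.07 and 5.08, with 144 h arrays at 5.75 and 4.41.

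The enzymes of sterol and fatty acid synthesis were FDPS, SC5D, TM7SF2 and SCD. FDPS, which makes farnesyl diphosphate on the way to cholesterol, had levels of 5.93 and 5.88 at 0 h, 6.09 and 6.24 at 48 h, 8.38 and 8.46 at 96 h, and 7.25 and 6.86 at 144 h. It fell by 1.36 ± 0.15 from its 96 h peak (limma, adjusted p = 0.000676). That its 144 h arrays stayed above the early range was required by the choice of genes. TM7SF2, a sterol reductase, had time means of 6.28, 6.13, 7.39 and 7.46. SC5D, a sterol desaturase, had means of 7.10, 7.22, 8.42 and 8.48, and SCD, which makes oleic acid from stearic acid, of 8.15, 8.33, 9.46 and 9.50. For these 3 enzymes the difference between 96 h and 144 h did not pass the test. The 144 h arrays of SC5D (8.80 and 8.17) and SCD (9.89 and 9.10) lay on either side of their 96 h arrays (8.38 and 8.45, and 9.48 and 9.44), so its sign depends on the array.

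Other genes of cholesterol synthesis and its control, from a list drawn up afterwards and not tested, were compared in the same way. Of 31 listed genes 16 were measured. Of 13 measured genes outside the set, 11 had a higher mean at 96 h than at 48 h and 9 had a higher mean at both late times. For 7 of the 13, all late arrays lay above all early ones, which held for 8.82% of all named genes. The median difference of these 13 from 48 h was 0.60 at 96 h and 0.29 at 144 h. Over all named genes it was 0.01 at 96 h, and no share over all named genes was computed for the counts of higher means. INSIG1, which holds the complex of SCAP and the transcription factor SREBP in the endoplasmic reticulum, had means of 5.89, 5.28, 8.14 and 6.58. CYP51, a sterol demethylase, had means of 6.43, 6.83, 8.49 and 7.73 and missed the set only through its 48 h difference of 0.40. SCAP, the sterol sensor that escorts SREBP, had lower late means, with values of 8.68, 8.65, 7.67 and 8.13. Its 144 h arrays were 7.59 and 8.66, the second within the range of its early arrays (8.62 to 8.71).

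**Figure D3:**
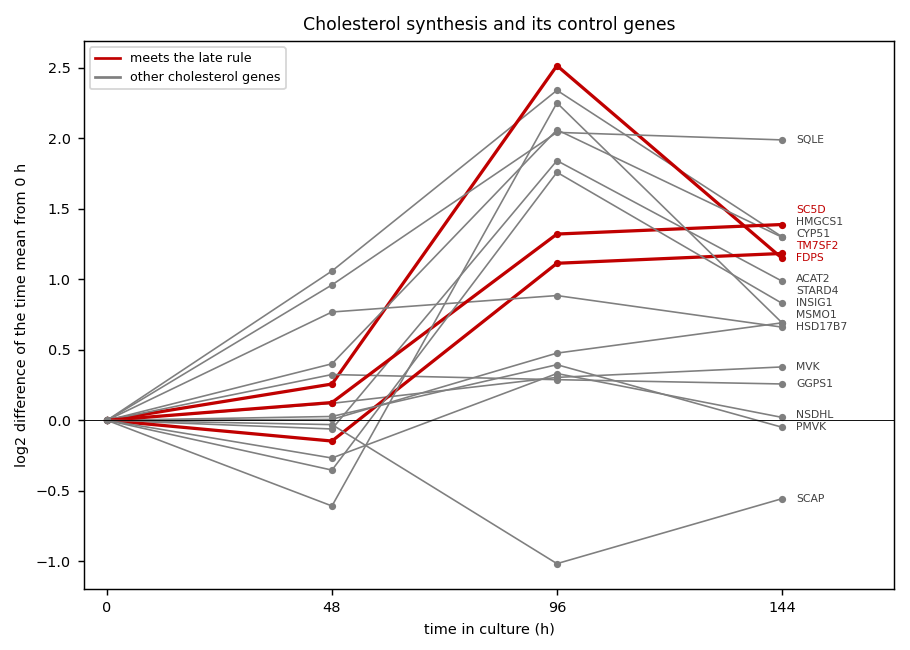
Difference of the time mean from the 0 h mean on the log2 scale (vertical) against hours in culture (horizontal) for the 16 measured genes of cholesterol synthesis and its control; thick red lines are the 3 that met the conditions. FDPS peaks at 96 h, and the means of SC5D and TM7SF2 are similar at 96 h and 144 h. SCAP lies below 0 at both late times, at 144 h mainly through 1 array.

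Among the other enzymes, MAN2B1, a lysosomal mannosidase, had time means of 7.38, 7.72, 8.74 and 8.97. UROD, of haem synthesis, had means of 6.69, 6.86, 7.93 and 8.03. EPM2A, the glycogen phosphatase laforin, had means of 3.30, 3.69, 4.68 and 4.34, and its lowest late array was 0.017 above its highest early one, the smallest such gap in the set.

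Of the transporters, SLC1A5, which imports glutamine, had levels of 4.35 and 5.01 at 0 h, 5.03 and 4.82 at 48 h, 6.69 and 6.68 at 96 h, and 6.81 and 6.83 at 144 h. The 4 late arrays were nearly level, and 144 h differed from 96 h by 0.14 (limma, adjusted p = 0.688). SLC6A17, a vesicular amino acid transporter, had means of 3.76, 3.94, 5.50 and 5.29.

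The cytoskeletal and scaffold genes numbered 5. MYH10, a non-muscle myosin heavy chain, had levels of 7.45 and 7.58 at 0 h, 7.69 and 7.80 at 48 h, 9.06 and 9.09 at 96 h, and 8.68 and 8.55 at 144 h. It fell by 0.46 ± 0.11 (limma, adjusted p = 0.022), which was lost without 96 h array 1 (0.122) or 96 h array 2 (0.140). CAPZB, a subunit that caps actin filaments, had means of 9.89, 10.27, 11.003 and 10.93. XIRP1, which binds actin in striated muscle, had means of 4.12, 4.41, 6.29 and 5.52, and PDLIM2, an adaptor on actin fibres, of 3.71, 3.94, 4.88 and 5.07. AKAP5, an anchor for protein kinase A, had means of 2.46, 2.59, 3.98 and 4.33, the early ones under the lower quartile.

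Regulators in the nucleus or on RNA were DLX2, IGF2BP2 and PIAS3. IGF2BP2, an mRNA-binding protein, had levels of 4.26 and 3.95 at 0 h, 3.81 and 3.84 at 48 h, 6.17 and 6.16 at 96 h, and 6.65 and 6.23 at 144 h. DLX2, a homeobox factor, had levels of 3.75 and 3.81 at 0 h, 3.75 and 3.73 at 48 h, 6.23 and 6.09 at 96 h, and 6.29 and 5.73 at 144 h. In both the late arrays formed 1 band above the early ones, a separation that the choice of genes required. Neither passed the test between 96 h and 144 h (limma, adjusted p = 0.275 and 0.62). PIAS3, which binds and inhibits STAT3, had means of 6.99, 7.09, 8.38 and 8.01, but another PIAS3 feature ran the other way at 5.40, 4.45, 4.32 and 4.47.

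The remaining 4 genes have varied roles. TMEM255A, a membrane protein, had levels of 4.06 and 3.50 at 0 h, 3.98 and 3.90 at 48 h, 8.94 and 8.83 at 96 h, and 8.30 and 6.37 at 144 h. Its mean was 30.7-fold above 48 h at 96 h, the greatest such ratio in the set, and 10.5-fold at 144 h. The difference of -1.55 ± 0.51 between the late times did not pass the test (limma, adjusted p = 0.068), but it was -2.51 (0.000605) without 144 h array 1 and -0.58 (0.0939) without 144 h array 2.

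S100A2, a calcium-binding protein of epithelia, had levels of 4.20 and 4.09 at 0 h, 4.56 and 4.41 at 48 h, 6.96 and 7.05 at 96 h, and 5.00 and 5.33 at 144 h. It fell by 1.84 ± 0.14 (limma, adjusted p = 0.000174), the greatest called fall in the set. KCTD12, a partner of GABA-B receptors, had means of 6.14, 6.19, 7.93 and 7.51, and DBNDD2 had 6.01, 6.06, 7.26 and 7.15.

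Between 96 h and 144 h, the only pair of times that the choice of genes did not use, 10 of the 46 genes passed (21.7%) against 22.2% of all 27558 features. Of all features 12.1% rose and 10.1% fell. The genes that rose were A2M, LAMA4 and PRELP, and those that fell were CD34, FDPS, HTR1B, MYH10, PRICKLE2, S100A2 and TNFRSF8. The share was thus near the background and is not a result about the set as a whole. The median difference was 0.02 over the set and -0.01 over all features. The count was 6 without 96 h array 1, 6 without 96 h array 2, 16 without 144 h array 1 and 18 without 144 h array 2.

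**Figure D4:**
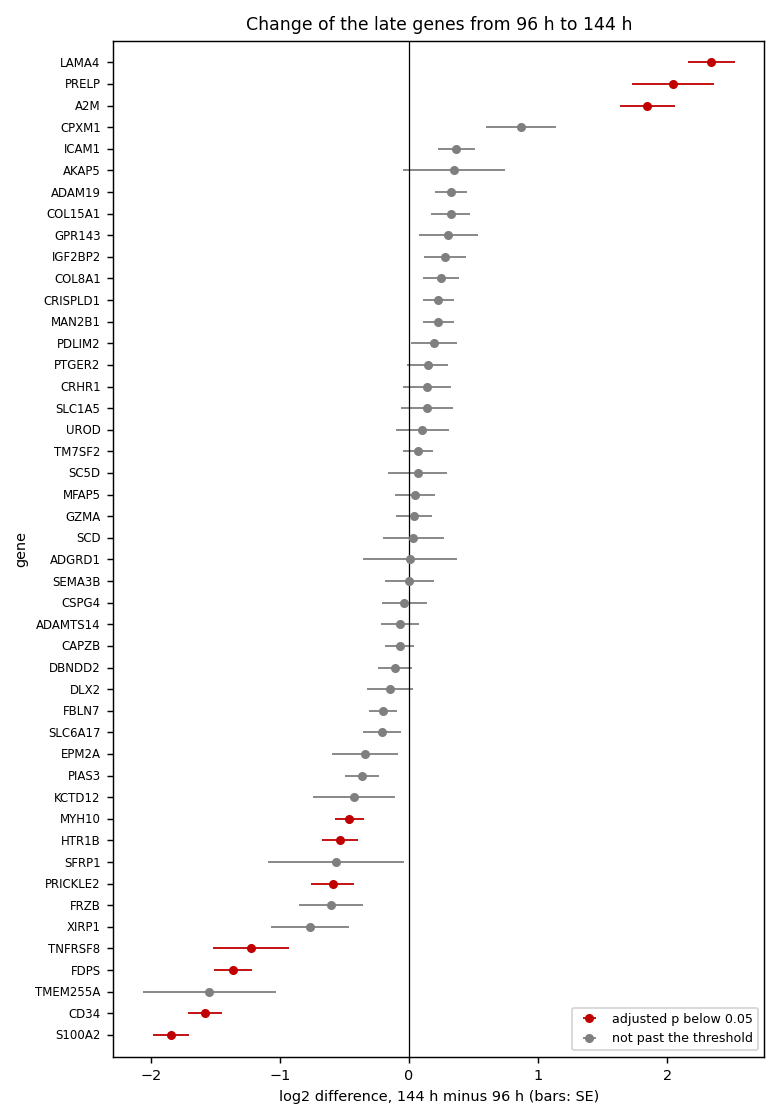
Log2 difference of 144 h minus 96 h (horizontal, bars are the SE) for each of the 46 genes (vertical); red points passed limma's test at an adjusted p below 0.05. LAMA4, PRELP and A2M lie farthest to the right, and S100A2 and CD34 farthest to the left.

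The 144 h arrays differed from each other more for these genes than for others. The median distance between both 144 h arrays was 0.40 for the 46 genes, 0.22 for all features and 0.21 for the 944 genes with separated late arrays. At 96 h it was 0.077 for the 46 genes and 0.088 for all features. At 144 h, 8 genes differed by more than 1 (SFRP1, TMEM255A, AKAP5, ADGRD1, PRELP, KCTD12, XIRP1 and TNFRSF8), and at 96 h none did. These distances were not tested.

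The edges of the conditions were as follows. EPM2A (0.39) and CAPZB (0.38) were just inside the 48 h band, and CYP51 (0.40) and MRC2 (0.41) just outside. ICAM1 (1.02) and ADGRD1 (1.03) just passed the 96 h condition, which NCKIPSD (0.98) and C1QTNF3 (0.97) missed, although C1QTNF3 was 2.81 above 0 h at 144 h. S100A2 and PIAS3 (both 1.02) just passed the 144 h condition, which ACAT2 (0.99) and CAST (0.97) missed. The 48 h band was the only condition failed by 368 genes, the 96 h condition by 31 and the 144 h condition by 63. No gene failed only the separation of the arrays.

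Markers of other cells moved in the same period. The summed level of 8 measured theca and fibroblast markers, as log2, was 7.99 and 8.10 at 0 h, 10.8 and 10.8 at 48 h, 12.3 and 12.3 at 96 h, and 13.2 and 12.9 at 144 h. Its members differed: COL1A1 (6.10, 8.96, 11.86 and 12.07), LUM (5.38, 7.66, 8.63 and 10.34) and THY1 (3.94, 4.97, 6.31 and 7.51) were higher at each later time. DCN had means of 5.25, 9.68, 9.33 and 11.24, and PDGFRB of 4.65, 7.35, 7.01 and 6.97. INSL3, a theca hormone, was highest at 0 h (5.76, 4.26, 3.99 and 4.16), PI16 lay between 3.37 and 3.59, and CYP17A1, the defining theca enzyme, was under the lower quartile at all 4 times. The summed smooth muscle and pericyte markers (6 of 9, CSPG4 included) were 9.12 and 9.26 at 0 h, 12.17 and 12.04 at 48 h, 12.94 and 13.02 at 96 h, and 12.89 and 12.85 at 144 h. Its members differed too: ACTA2 (7.82, 10.67, 11.77 and 11.65), TAGLN (5.95, 10.63, 11.70 and 11.63) and CNN1 (4.58, 7.16, 9.46 and 9.74) were higher at all later times than at 0 h. RGS5 was highest at 48 h (7.73, 9.94, 8.66 and 7.09), and CSPG4 and MCAM (4.18, 4.11, 4.72 and 4.66) were slightly lower at 48 h than at 0 h. Both sums were thus higher at 48 h, when the 46 genes were within their band. The sum of the fibroblast list was higher again at 96 h and at 144 h. The part of both lists in the result was not tested.

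Over the same times the summed level of the 5 measured granulosa markers went from 11.36 and 11.46 at 0 h to 8.85 and 8.81 at 48 h, 8.07 and 8.13 at 96 h, and 7.73 and 8.14 at 144 h. HSD17B1 had most of this sum at 0 h, while AMHR2 had means of 6.61, 6.38, 5.26 and 5.47 and WT1, in the other direction, 6.17, 6.91, 7.19 and 7.01. The sum of the 5 endothelial markers stayed between 6.22 and 6.69 and that of the 6 leukocyte markers between 7.52 and 7.93 on all arrays. Within the leukocyte sum, LYZ was higher late (5.27, 6.43, 7.02 and 6.47) and TYROBP (6.49, 6.40, 4.30 and 5.40) and PTPRC (4.44, 4.28, 3.69 and 3.60) lower. Of 16 lymphocyte genes other than GZMA and TNFRSF8, on a list made afterwards, none had all late arrays above all early ones. That condition held for only 8.82% of all named genes, so none among so few is not a result about the list. Several of them, such as CD3G (2.43, 2.27, 2.34 and 2.33) and IL7R (2.39, 2.53, 2.28 and 2.32), were under the lower quartile at all times. CD3E had means of 3.96, 3.70, 3.70 and 3.79. The 5 epithelial markers were at 6.54 and 6.77, 9.19 and 9.04, 7.78 and 7.82, and 7.90 and 9.23, the last pair being far apart, and 7 oocyte markers were highest at 0 h.

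**Figure D5:**
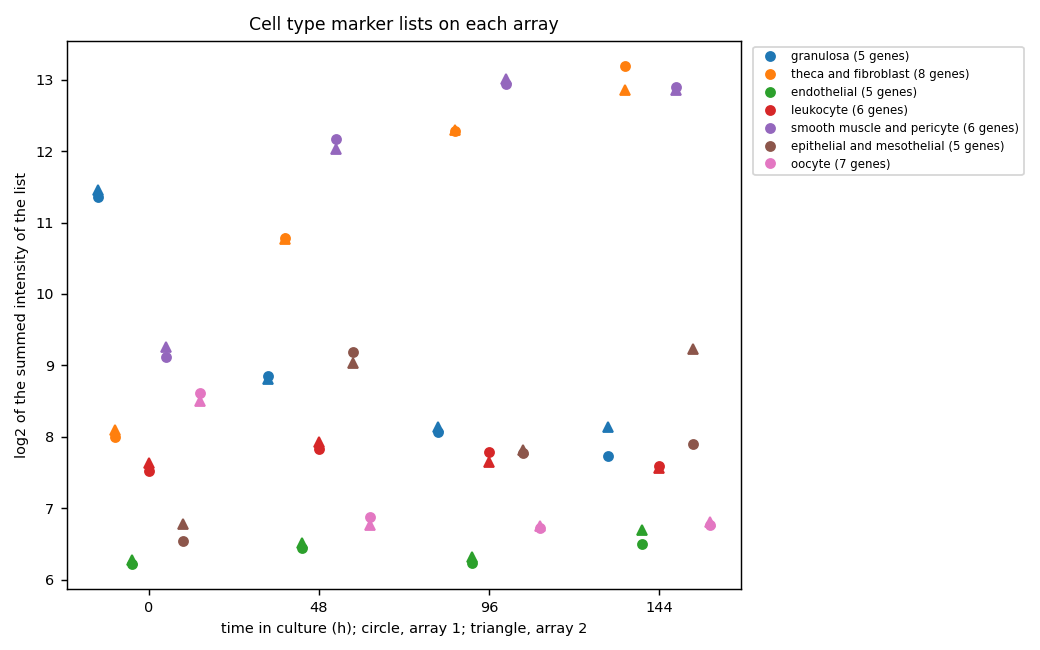
Log2 of the summed intensity of each marker list (vertical) against hours in culture (horizontal); each colour is a list, circles are array 1 and triangles array 2. The theca and fibroblast list reaches 13.2 at 144 h, the granulosa list is highest at 0 h (11.46), and the sums of the endothelial and leukocyte lists stay within 6.22 to 6.69 and 7.52 to 7.93, although single leukocyte genes move in opposite directions.

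Of 46 measured genes for A2M relatives, their receptors and secreted protease inhibitors, 7 rose and 11 fell between 48 h and 96 h (39.1%; of all features 29.4% passed limma's test, 13.4% higher and 16% lower). Between 96 h and 144 h, 7 rose and 5 fell (26.1%, against 22.2% of all features). WFDC1, a secreted protease inhibitor, rose by 3.10 ± 0.18 from 48 h to 96 h (limma, adjusted p = 2.85e-05). SPINK5, another, fell by 3.73 ± 0.34 (0.000163), ITIH5, which binds hyaluronan, by 2.43 ± 0.28 (0.00047), and SERPINB2, an inhibitor of plasminogen activators, by 2.21 ± 0.23 (0.000317).

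Some relatives were picked for their role after their values were seen. LRP1 rose by 0.55 ± 0.11 from 48 h to 96 h (limma, adjusted p = 0.00608), and CD109, a membrane-bound relative of A2M, had means of 4.40, 7.35, 7.83 and 7.24, so it was high by 48 h. A2ML1 had means of 3.07, 2.75, 3.14 and 3.38. The list's count of 18 between 48 h and 96 h was 11 without 48 h array 2, 7 without 96 h array 1 and 10 without 96 h array 2. Between 96 h and 144 h its 12 became 6 without 96 h array 1 and 5 without 96 h array 2.

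Complement proteins include relatives of A2M that carry the same reactive bond. Of 29 measured complement genes, none of them in the set, 2 rose and 10 fell from 48 h to 96 h (41.4%, against 29.4% of all features), with C7 down by 3.36 ± 0.21 (limma, adjusted p = 3.84e-05) and C9 by 1.88 ± 0.17 (0.000147). From 96 h to 144 h, 6 rose and 0 fell by limma (20.7%, against 22.2% of all features). At an unadjusted limma p below 0.05, 10 were higher and 0 lower, and 34.4% of all features were below it in either direction. The inhibitor list had 7 higher and 9 lower at that level, and the interleukin-6 list described below 9 higher and 4 lower. Of the 6 complement genes that rose, CFI and SERPING1 were picked after their values were seen. CFI, which cleaves complement fragments, rose by 1.82 ± 0.12 (adjusted p = 0.000104) and SERPING1, the C1 inhibitor, by 1.26 ± 0.11 (0.000343). Without 144 h array 1 the count of 6 became 10.

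Signalling by the interleukin-6 family drives A2M in rat liver. Of its 35 measured genes, 2 rose and 4 fell from 48 h to 96 h (17.1%, against 29.4% of all features), and 4 rose and 1 fell from 96 h to 144 h (14.3%, against 22.2%). Both shares were below those of all features. Several of the listed genes, such as FGG (2.27, 2.21, 2.29 and 2.30) and CP (2.71, 2.60, 2.55 and 2.55), were under the lower quartile at all times. Whether this lowered the shares was not tested, and they are not read as a result about the list. PIM1, a kinase that STAT factors induce, rose by 2.14 (limma, adjusted p = 6.61e-05) and then fell by 0.98 (0.00359). CEBPD, a factor of the acute phase, fell by 2.19 (3.02e-05) and rose by 2.23 (6.51e-05), and STAT5A fell by 1.45 (0.000139) and rose by 1.17 (0.000666). STAT3, named for its role, was not called from 48 h to 96 h, with a difference of -0.32 (0.0624). The first count of 6 became 10 without 144 h array 1 or without 144 h array 2. The second count of 5 became 3 without either 96 h array and 9 without 144 h array 1.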

How the data were processed

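Total RNA was labelled with biotin and hybridised to Affymetrix whole-transcript arrays, 8 in all. The values deposited by the authors are log2 intensities made by RMA, per the submitters' processing notes; its version is not given in the sources used here. RMA brings the arrays close to 1 distribution, which hides any shift common to most genes, although their medians still ran from 4.52 to 4.63. All 27558 features were used without further normalization. The platform annotation in GEO (possibly outdated) gave 1 symbol for 11735, several for 612 and none for 15211, and 6 symbols were updated. Features without a single symbol were tested but not named.

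In R 4.3.3, limma 3.58.1 (lmFit, eBayes) estimated the 4 time means from the 8 arrays (4 residual degrees of freedom, prior 3.98), tested on simulated data. Tests were two-sided, adjusted by Benjamini-Hochberg over all features and called below 0.05. The median SE of a difference was 0.143, and 2 arrays per time limit the precision.

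The members and lists were chosen with earlier results of these data known. Every array value is given for A2M, the 15 genes with the largest late-minus-early difference, and up to 5 called rises and 5 called falls after 96 h. For each list, up to 4 non-members with the largest change from 48 h to 96 h were eligible, and genes outside this rule are described as chosen afterwards or named for their role. Role groups were assigned by hand. Levels under the mean lower quartile of the 0 h arrays (3.24) were not shown to exceed background. Alternatives changed normalization, arrays, the filter on dim features, variance moderation, replicate block, array weights and thresholds.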

Additional observations from a re-analysis of the deposited data

How the results depend on the processing

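A2M met the conditions under all 17 settings. The set had 36 genes with a 48 h band of 0.3 and 69 with a band of 0.5. The 46 genes became 45 to 53 when 1 array was left out, of which 36 to 46 were among the 46, and 53 (41 shared) with median centring, 46 (37) with quantile normalization, 45 (35) with cyclic loess, 18 with a minimum rise of 1.5, and, in settings chosen after seeing the data, 90 without the 96 h condition and 195 without the 144 h condition. From 96 h to 144 h, A2M, CD34, FDPS, LAMA4, PRELP and S100A2 kept direction and call under all 16 alternatives. The 1 reversal was SFRP1, from -1.60 to 0.47 with 1 array left out. The count of 10 called was 6 to 18 (3 to 10 higher, 3 to 12 lower) with 1 array left out, 6 (3 lower) with only the 4 arrays compared and 6 (3 lower) at 0.01. The labels do not say whether the replicate numbers pair samples across times. The array 1 minus array 2 differences of 2 times had correlations of -0.0382 to 0.188, which cannot show whether they do. With the replicate block the count of 10 was 12.

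For A2M relatives and inhibitors, leaving out 1 array gave 7 to 19 calls (2 to 7 higher, 5 to 12 lower) from 48 h to 96 h and 5 to 14 (4 to 8 higher, 1 to 6 lower) from 96 h to 144 h. At 0.01, 4 were higher in the first, and 7 were called, 2 lower, in the second, where the 4 arrays alone gave 3 lower. Complement had 1 to 3 higher from 48 h to 96 h, 1 with cyclic loess and 1 at 0.01, then 4 to 10 calls with 0 to 2 lower. Interleukin-6 genes had 4 to 10 calls from 48 h to 96 h (2 to 4 higher, 2 to 6 lower), 10 (7 lower) with the 4 arrays and 12 (5 higher, 7 lower) with array weights; median centring and quantile normalization each gave 4 higher. From 96 h to 144 h they had 3 to 9 (2 to 8 higher, 1 to 2 lower), 3 (2 higher) with the 4 arrays, 8 (2 lower) with the replicate block, 3 (2 higher) at 0.01 and 3 lower with median centring. Settings with fewer arrays have fewer residual degrees of freedom; the cause of the other differences was not tested. Where 1 array is left, it is assumed to vary like the other times.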

Other observations

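The conditions also held for 107 of 27558 features (0.388%) when every feature was taken. Of these, 53 had a single symbol, 53 had none and 1 had several, out of 11735, 15211 and 612 features of each kind. Of the 53 with a symbol, 4 were further features of the 46 genes, and 3 belonged to genes whose brighter feature did not meet the conditions. DBNDD2 had a pair of features with identical values, and another at 4.90, 5.00, 5.69 and 5.81 that did not meet the conditions. Features with several symbols that named DBNDD2 (6.95, 7.42, 7.20 and 7.52) or FDPS (10.19, 9.95, 11.59 and 9.77) did not meet them either. CSPG4 had a second feature at 3.72, 4.25, 6.68 and 6.72, which left the 48 h band.

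In RefSeq gene order (Sscrofa11.1), all 46 genes were found, on 16 chromosomes. A2M and MFAP5 were the only pair with fewer than 20 protein-coding genes between them, with 6. Of those, KLRG1 had means of 2.47, 2.60, 2.47 and 2.45 at 0 h, 48 h, 96 h and 144 h, M6PR had 8.94, 9.62, 9.71 and 9.90, and A2ML1 had 3.07, 2.75, 3.14 and 3.38.

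Fatty acid genes outside the set, on a list drawn up afterwards and not tested, included ACACA, the first enzyme of fatty acid synthesis, with means of 5.00, 5.57, 7.07 and 6.14. ACLY, which supplies its substrate, had 8.09, 8.31, 9.54 and 8.76. Of 16 listed genes 12 were measured. Of the 11 outside the set, 7 had a higher mean at 96 h than at 48 h and 5 at both late times. For 5 of the 11, all late arrays lay above all early ones, which held for 8.82% of all named genes. The median difference of these 11 from 48 h was 0.44 at 96 h and -0.13 at 144 h. Over all named genes it was 0.01 at 96 h, and no share over all named genes was computed for the counts of higher means.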
